A study of Mus musculus with 6 samples.

Results

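The genes described here encode proteins that neutrophils, the most abundant granulocytes of blood, pack into granules or hold in the cytoplasm. They were chosen by name, as 10 of the 24346 gene names in the deposited tables, and all 10 were found. A developing neutrophil fills its granules in order. Primary (azurophil) granule genes are transcribed in early precursors of the marrow, secondary (specific) granule genes in later precursors, and the calprotectin genes in late and circulating cells. The set holds 4 primary granule genes (Elane, Mpo, Prtn3 and Ctsg), 4 secondary granule genes (Ngp, Camp, Ltf and Lcn2) and the 2 calprotectin genes S100a8 and S100a9.

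Messenger RNA was sequenced from the skull roof (calvaria) of newborn mice, with the interparietal and occipital bones kept and the cartilage of the ears removed. Of 6 libraries, 3 are titled controls and have the genotype Pth1rfl/fl, and 3 are titled mutant and have the genotype Prx1-Cre;Pth1rfl/fl, so the floxed alleles are common to both groups and the Cre transgene separates them. Prx1-Cre is known as a driver of recombination in mesenchyme of the limbs and skull, and Pth1r encodes the receptor of parathyroid hormone and its related protein. No label says whether the libraries of a group came from separate animals, so p-values measure the spread between these libraries. In a bulk sample, fewer neutrophils and less RNA per neutrophil cannot be told apart.

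Pth1r, the targeted gene, had 89.2, 93.3 and 102 FPKM in controls 1 to 3 against 127, 125 and 142 FPKM in mutant-labelled libraries 1 to 3. It was thus not lower where the labels place the deletion, so directions here follow the titles only. A value per gene does not resolve the floxed part. FPKM are fragment counts divided by transcript length and by a library's total. The labelled tissue showed its defining markers, with the bone collagen gene Col1a1 between 9427 and 13131 FPKM. Other tissue genes differed between the groups. Of the 10 listed bone and cartilage genes, 5 were higher and 5 lower in mutant-labelled libraries, and 1 of each passed in limma. Ibsp rose from 908 ± 66.8 to 1755 ± 260 FPKM (SD, n = 3 each), at an adjusted p of 0.0306 in limma. Matn1 fell from 183 ± 84.4 to 14.3 ± 4.32 FPKM, at an adjusted p of 0.0205 in limma. Between 17042 and 17610 names were above 0 in a library. Differences are of log2(FPKM + 1), which understates changes of low genes, and were tested in limma over the 13180 names that averaged 1 FPKM or more.

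The depth behind the values could be read in steps. Multiplied by a library's relative depth (1.00, 0.845 and 0.914 in controls 1 to 3, and 0.972, 0.778 and 0.703 in mutant-labelled libraries 1 to 3), the values of 9 of the 10 genes fell on whole multiples of 1 step per gene, with no value more than 0.00127 of a step away. S100a9 gave no such step. A step is the largest value that gives whole numbers in every library, and whether it stands for 1 fragment was not established.

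The primary granule genes were low in every library, at 1.06 FPKM or less, and their levels overlapped between the groups. These genes encode myeloperoxidase (Mpo), which makes hypochlorous acid, and 3 related serine proteases, neutrophil elastase (Elane), proteinase 3 (Prtn3) and cathepsin G (Ctsg). None of the 4 reached a mean of 1 FPKM, so none entered the test, and their values are given as measured.

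Elane had 0.368, 0.0870 and 0 FPKM in controls 1 to 3 against 0.0756, 0.0945 and 0 FPKM in mutant-labelled libraries 1 to 3. In steps these are 5, 1 and 0 against 1, 1 and 0. If 1 step is 1 fragment, a value of 0 allows up to 3 steps. That is 0.241 FPKM in control 3 and 0.314 FPKM in library 3 labelled mutant. Control 1 alone held more than 1 step, and no ratio is given at such counts. These limits cover counting error only.

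Mpo had 0.489, 0.421 and 0.219 FPKM in controls against 0.298, 0.200 and 0.285 FPKM in mutant-labelled libraries, or 22, 16 and 9 steps against 13, 7 and 9. Prtn3 had 1.03, 0.812 and 0.676 FPKM in controls against 0.848, 1.06 and 0.488 FPKM in mutant-labelled libraries, or 15, 10 and 9 steps against 12, 12 and 5. Ctsg had 0.922, 0.468 and 0.288 FPKM in controls against 0.542, 0.423 and 0.655 FPKM in mutant-labelled libraries, or 14, 6 and 4 steps against 8, 5 and 7. Control 1 was the highest of the controls in all 4 genes, and control 3 the lowest.

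The ratio of group means, labelled mutant to control, was 0.693 for Mpo, 0.951 for Prtn3 and 0.966 for Ctsg. A two-sided exact permutation test on mean log2 values gave p = 0.7 for Elane, 0.3 for Mpo, 1 for Prtn3 and 1 for Ctsg, where 3 libraries against 3 allow no p below 0.1. Over the 4 genes together the libraries held 111 steps in controls and 80 in those labelled mutant, with the lower relative depth of the second group not taken out. With so few steps a modest difference could have gone undetected.

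The start regions of the 4 primary granule genes all hold the letters AGGAAGT, a core bound by PU.1 and related ETS factors. In the RefSeq table of promoters (GRCm38.p6), read on both strands over the 250 bases before the start, 7.80% of 27025 genes hold this run, against 4 of 4 primary, 0 of 4 secondary and 1 of 2 calprotectin genes. A second run, CAACGG, the core bound by MYB, was found before the starts of Elane and Prtn3 alone among the 10, and in 4.15% of all genes. Both lie close to the start, 51 and 56 bases before it. The motifs were picked after the sequences had been seen, and a match shows only that the letters are there. The sequences below run up to the first annotated exon of GENCODE, with every AGGAAGT on either strand in capitals. The CAACGG of Elane lies past that edge and is not shown. That of Prtn3 crosses the edge, so only its first letters, caa, end the sequence shown. They are given to show the position and flanks of the shared run.
Elane, plus strand of chr10:79886062-79886246: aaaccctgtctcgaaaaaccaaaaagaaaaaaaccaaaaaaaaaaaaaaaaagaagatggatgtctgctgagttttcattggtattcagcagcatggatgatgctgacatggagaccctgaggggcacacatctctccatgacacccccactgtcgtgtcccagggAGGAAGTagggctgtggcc
Mpo, plus strand of chr11:87793534-87793580: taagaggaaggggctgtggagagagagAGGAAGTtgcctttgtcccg
Prtn3, plus strand of chr10:79879417-79879613: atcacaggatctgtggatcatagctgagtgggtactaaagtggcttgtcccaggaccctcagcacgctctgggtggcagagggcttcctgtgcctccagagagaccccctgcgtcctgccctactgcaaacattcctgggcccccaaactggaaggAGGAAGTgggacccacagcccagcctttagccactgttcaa
Ctsg, minus strand of chr14:56102575-56102824: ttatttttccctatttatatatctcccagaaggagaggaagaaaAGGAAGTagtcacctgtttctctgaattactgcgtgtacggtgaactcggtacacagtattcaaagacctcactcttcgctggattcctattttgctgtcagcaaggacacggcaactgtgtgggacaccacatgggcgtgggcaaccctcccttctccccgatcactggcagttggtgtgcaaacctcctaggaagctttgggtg

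Elane and Prtn3 are neighbours on chromosome 10 of GRCm38, both on the plus strand, Prtn3 at positions 79874476 to 79883174 and Elane at 79886247 to 79888215 in GENCODE M21. The GENCODE span of Prtn3 begins upstream of the RefSeq start used above. Prtn3 overlaps Plppr3 on the minus strand, and Mpo, at positions 87793581 to 87804413 of chromosome 11, overlaps Gm11505 on the minus strand. No source used here says whether the authors' counting used strand, so the reads of these pairs may have been mixed. Ctsg, at positions 56099881 to 56102574 of chromosome 14, overlaps no other annotated gene.

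Of the 4 secondary granule genes, 3 (Ngp, Camp and Ltf) had libraries 1 and 2 labelled mutant above every control, while library 3 was lower than both. Their levels overlapped with those of the primary genes, and Ltf had a lower control mean (0.768 FPKM) than Prtn3 (0.839 FPKM). Ngp (neutrophilic granule protein) had 1.37, 1.30 and 1.498 FPKM in controls against 5.24, 4.29 and 1.87 FPKM in mutant-labelled libraries. In steps these are 25, 20 and 25 against 93, 61 and 24. The groups did not overlap in FPKM, with library 3 labelled mutant just above the highest control.

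The mean of Ngp was 1.39 ± 0.102 FPKM in controls against 3.80 ± 1.74 FPKM in mutant-labelled libraries (SD, n = 3 each), which is 2.74 times as much. Its log2 difference of 0.93 ± 0.27 (SE) did not pass in limma with Benjamini-Hochberg adjustment over all tested genes (adjusted p = 0.25). Without library 3 labelled mutant it did pass, at a log2 difference of 1.27 and an adjusted p of 0.0258 in limma. Over all settings tried its adjusted p ran up to 0.509.

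Camp encodes cathelicidin, an antimicrobial peptide precursor. It had 1.89, 1.76 and 1.77 FPKM in controls against 4.44, 2.43 and 0.575 FPKM in mutant-labelled libraries, or 14, 11 and 12 steps against 32, 14 and 3. Its value in library 3 labelled mutant was the lowest of the 6 and rests on 3 steps. The groups overlapped, and the log2 difference was 0.14 ± 0.40 (SE; adjusted p = 0.95 in limma), of the opposite sign, -0.27, without library 1 labelled mutant.

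Ltf encodes lactoferrin, which binds iron. It had 0.779, 0.874 and 0.651 FPKM in controls against 1.56, 1.27 and 0.788 FPKM in mutant-labelled libraries, or 38, 36 and 29 steps against 74, 48 and 27. Its mean over the 6 libraries was 0.987 FPKM, just under the filter, while Camp, at 2.14 FPKM, was the lowest of the genes inside it. The ratio of group means was 1.57, and the exact permutation test, two-sided, gave p = 0.2.

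Summed over Ngp, Camp and Ltf, the controls lay very close together, at 4.04, 3.93 and 3.92 FPKM. The libraries labelled mutant had 11.2, 7.99 and 3.23 FPKM. Library 1 was thus 2.84 times the control mean, library 2 was 2.02 times and library 3 was 0.816 times. The spread among the libraries labelled mutant was far wider than that among controls.

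Lcn2 encodes lipocalin 2, which binds bacterial iron carriers and is also known from epithelium and skeletal cells. It did not share that pattern. Its values were 15.1, 18.7 and 7.64 FPKM in controls against 20.6, 13.7 and 5.89 FPKM in mutant-labelled libraries, with the groups overlapping throughout. The ratio of means was 0.969, and the log2 difference was -0.11 ± 0.46 (SE; adjusted p = 0.966 in limma). Library 3 was the lowest of each group, and the sign of the difference turned without control 2 (0.14) or without library 3 labelled mutant (0.35).

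Keratinocytes can also make lipocalin 2 and calprotectin, and the keratin genes of skin differed in level. Krt5, Krt14 and Krt1 stayed at or below 0.328 FPKM in every library, whereas Krt10 had 1.14 to 1.90 FPKM and Krt15 0.0443 to 1.95 FPKM (keratins named after their values were seen). The summed level of the 10 listed epithelial genes ran from 20.1 to 25.2 FPKM in controls against from 18.5 to 28.0 FPKM in mutant-labelled libraries. Its most abundant members were Krtdap and Sfn. Of the 10 members 5 could be tested and 0 passed in limma, with 1 at an unadjusted p under 0.05.

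The run GCAAT, a core bound by C/EBP factors, was present before the starts of all 4 secondary granule genes, both calprotectin genes and 2 of the 4 primary ones, and in 23.3% of the 27025 genes of the RefSeq table. In Camp, Lcn2, Elane and Mpo the run lies past the start of the first annotated exon of GENCODE. This run too was picked after the sequences had been seen, and a match shows only that the letters are there. C/EBP epsilon is known as a factor of secondary granule gene transcription. Its gene, Cebpe (picked once its values were known), had 0.277 FPKM or less in every library. Ngp and Ltf are shown up to the first annotated exon, with GCAAT or its reverse complement ATTGC in capitals. Ngp holds 1 and Ltf holds 2.
Ngp, plus strand of chr9:110419558-110419746: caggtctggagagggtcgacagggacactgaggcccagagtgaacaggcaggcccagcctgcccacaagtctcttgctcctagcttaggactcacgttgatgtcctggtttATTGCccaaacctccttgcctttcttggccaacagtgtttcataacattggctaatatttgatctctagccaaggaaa
Ltf, plus strand of chr9:111019042-111019270: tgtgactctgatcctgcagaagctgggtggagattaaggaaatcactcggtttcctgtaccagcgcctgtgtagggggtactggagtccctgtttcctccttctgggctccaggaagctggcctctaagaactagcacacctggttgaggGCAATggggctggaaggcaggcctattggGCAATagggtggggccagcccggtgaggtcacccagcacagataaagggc

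**Figure D1:**
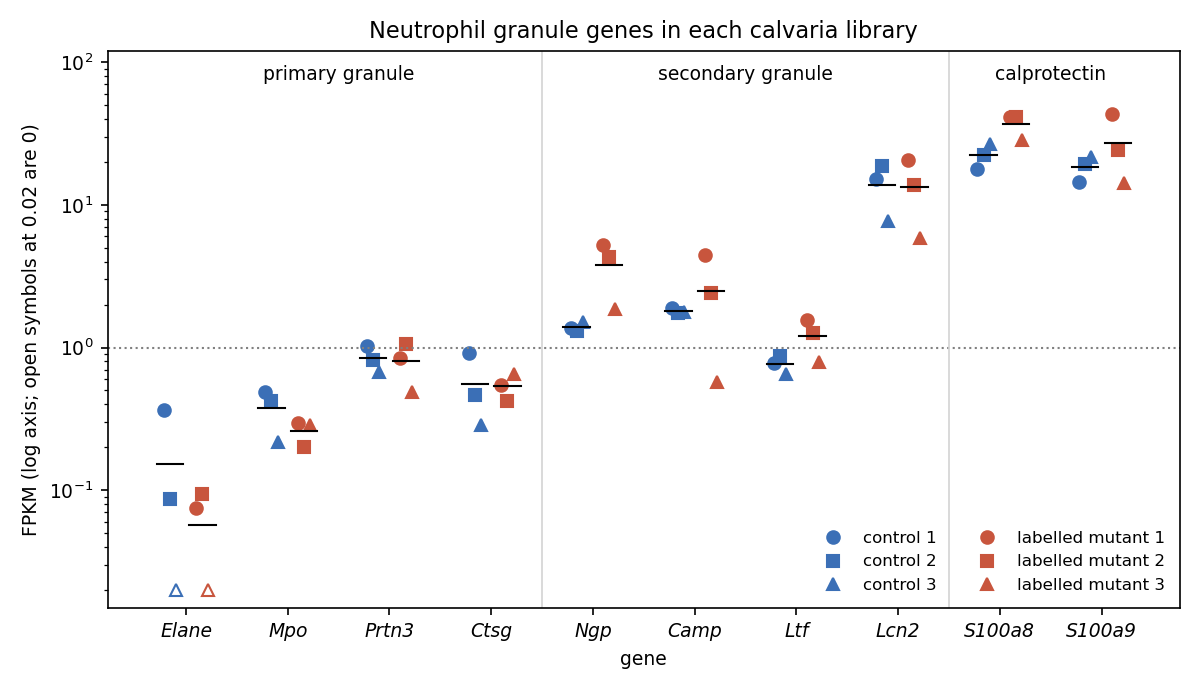
FPKM (log axis) of the 10 genes in each of the 6 libraries, with blue for controls, red for libraries labelled mutant, symbols for libraries 1 to 3 and black lines for group means. The primary granule genes lie near or below 1 FPKM in both groups, while Ngp and S100a8 are the only genes of the set whose groups do not overlap.

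The calprotectin genes were the most abundant of the set. Their products form a dimer that binds calcium, zinc and manganese and makes up a large part of neutrophil cytosol, and monocytes express them too. S100a8 had 17.8, 22.5 and 26.5 FPKM in controls against 41.2, 41.3 and 28.2 FPKM in mutant-labelled libraries, or 61, 65 and 83 steps against 137, 110 and 68. As with Ngp, library 3 labelled mutant lay just above the highest control.

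The mean of S100a8 was 22.3 ± 4.36 FPKM in controls against 36.9 ± 7.497 FPKM in mutant-labelled libraries (SD, n = 3 each), which is 1.66 times as much. Its log2 difference of 0.70 ± 0.19 (SE) did not pass in limma (adjusted p = 0.219), nor in any other setting tried (adjusted p between 0.104 and 0.478).

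S100a9 had 14.4, 19.2 and 21.7 FPKM in controls against 43.0, 24.4 and 14.2 FPKM in mutant-labelled libraries. Library 1 was the highest of the 6 and library 3 the lowest, so the groups overlapped. The log2 difference was 0.42 ± 0.36 (SE; adjusted p = 0.783 in limma), and it shrank to 0.03 without library 1 labelled mutant.

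The partners of the dimer did not keep the same ratio in mutant-labelled libraries. S100a8 divided by S100a9 was 1.24, 1.17 and 1.22 in controls and 0.957, 1.69 and 1.99 in mutant-labelled libraries 1 to 3. The controls spanned a narrow range, and the libraries labelled mutant fell on both sides of it. A ratio within a library does not depend on its depth, but S100a9 was the gene that gave no whole steps and whether its estimation affects the ratio was not tested. The genes lie on chromosome 3, S100a8 at positions 90668978 to 90670035 on the plus strand and S100a9 at 90692632 to 90695721 on the minus strand, with no overlapping gene.

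Over the set, 5 genes could be tested and 0 passed the threshold in limma, where 0.607% of all tested genes did. At an unadjusted p under 0.05 in limma there were 2, Ngp and S100a8, against 10.5% of all tested genes. Fitted with no filter on low values, 0 of the 10 passed in limma, where 0.262% of 19049 genes did. Ngp and S100a8 were also those with groups that did not overlap, higher in mutant-labelled libraries, as were 9.34% of all tested genes. The median log2 difference of the 5 was 0.42, beside 0.00147 over all tested genes. The exact permutation test over samples gave its smallest possible p, 0.1, for Ngp and S100a8.

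**Figure D2:**
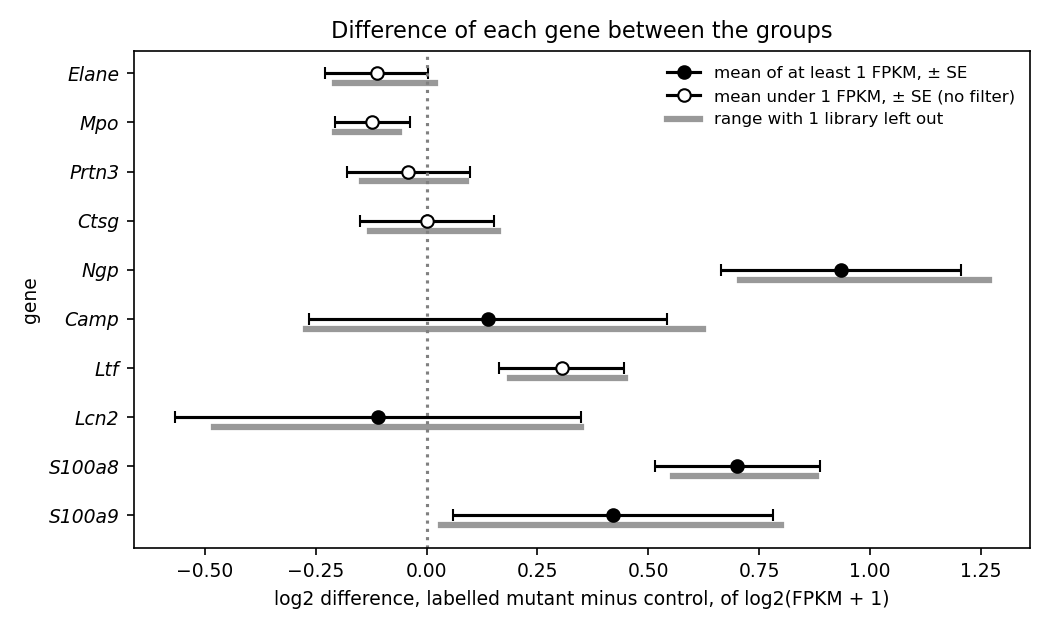
Log2 difference of log2(FPKM + 1), labelled mutant minus control, for the 10 genes, with the standard error from limma (open symbols are genes under 1 FPKM, fitted with no filter) and grey bars for the range when 1 library is left out. The ranges of Ngp, Ltf, S100a8 and S100a9 stay above 0 and that of Mpo stays below it. Those of Elane, Prtn3, Ctsg, Camp and Lcn2 cross 0.

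Among lists of other neutrophil genes, 5 genes passed, 2 of the NADPH oxidase and 3 receptors or adhesion molecules. In a list of 26 further granule and cytoplasmic genes, 16 could be tested and 0 passed in limma (5 at an unadjusted p under 0.05), with a median log2 difference of 0.30. Its most abundant members were Anxa1, the anti-inflammatory annexin A1, at 145 ± 7.92 and 169 ± 4.86 FPKM (SD, n = 3 each), and Lyz2, the lysozyme of granulocytes and macrophages, at 60.2 ± 10.002 and 67.6 ± 0.618 FPKM (SD, n = 3 each). Among its genes of early stages, Bpi, Ms4a3 and Fcnb had 0.268 FPKM or less in every library, while Prss57, a serine protease of primary granules, had 2.15 to 3.21 FPKM, above every primary member (these 4 were named after their values were seen).

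In the list of the NADPH oxidase, which makes superoxide in phagocytes, 2 of 6 genes rose, against 0.524% of all tested genes. Rac2, its regulatory GTPase, rose from 6.95 ± 0.576 to 14.0 ± 0.38 FPKM (SD, n = 3 each), with an adjusted p of 0.00415 in limma. Ncf4, the p40phox subunit gene, rose from 2.77 ± 0.514 to 5.81 ± 0.711 FPKM, at an adjusted p of 0.0477 in limma. Cyba and Ncf1, its most abundant members by FPKM with Rac2 close behind, did not pass. The median log2 difference of the 6 was 0.37.

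In the list of neutrophil receptors and adhesion molecules, 3 of 8 tested genes rose, with a median log2 difference of 0.22. They were the chemokine receptor gene Ccr1, at 2.92 ± 0.612 and 7.58 ± 0.85 FPKM, the integrin gene Itgb2, at 3.82 ± 0.532 and 6.95 ± 0.572 FPKM, and the selectin ligand gene Selplg, at 2.19 ± 0.167 and 3.96 ± 0.393 FPKM (SD, n = 3 each). Each is also known from macrophages or osteoclasts. Csf3r, the receptor of the granulocyte growth factor G-CSF, was picked once its values were known and had 0.644, 1.496 and 1.09 FPKM in controls against 1.13, 1.37 and 1.09 FPKM in mutant-labelled libraries. Its groups overlapped and it did not pass (adjusted p = 0.911 in limma).

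In Rac2, Ncf4, Ccr1, Itgb2 and Selplg, library 3 labelled mutant lay above every control, which passing the test at this number of libraries nearly requires. Rac2 there had 13.7 FPKM, against at most 7.53 in a control, and Ccr1 had 7.92 against at most 3.61. Hp, the haptoglobin gene of the granule list (picked once its values were known), did not pass. It had 4.83 FPKM there against at most 3.26 in a control. It was 1 of 4 genes, among the 16 tested in that list, with groups that did not overlap, higher in mutant-labelled libraries. Over all tested genes that share was 9.34%. Retnlg and Pglyrp1 of the same list (named after their values were seen) went the other way. In library 3 labelled mutant Retnlg had 1.69 FPKM against at least 1.87 in a control, and Pglyrp1 had 0.632 against at least 1.82. The osteoclast list had a summed level of 610, 683 and 672 FPKM in controls against 1737, 1638 and 1786 FPKM in mutant-labelled libraries, and with 7 of 10 genes past the threshold. In the macrophage list 2 of 11 genes rose, Cd68 and Csf1r. What part these cells have in the values of the shared genes was not tested.

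Transcription factors and growth factors of granulocytes showed 0 called genes, among 9 and 4 tested in limma, with 2 and 2 at an unadjusted p under 0.05. Spi1, the gene of PU.1 (picked once its values were known), had 13.3, 17.6 and 11.9 FPKM in controls against 27.6, 24.9 and 25.0 FPKM in mutant-labelled libraries. Its groups lay well apart without passing (adjusted p = 0.0588 in limma). Of the 9 tested transcription factor genes, 5 were higher and 4 lower, with a median log2 difference of 0.03. Gfi1, under the filter (also named after its values were seen), had 0.946 ± 0.202 FPKM in controls against 0.570 ± 0.211 FPKM in mutant-labelled libraries (SD, n = 3 each). Csf3 and Csf2, which encode the growth factors G-CSF and GM-CSF (also picked once their values were known), were listed at 0 in every library but 1, where Csf3 had 0.193 FPKM. Cxcl12, the chemokine gene that retains neutrophils in marrow, was the most abundant of its list and did not pass (log2 difference -0.03 ± 0.07 SE, adjusted p = 0.93 in limma).

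Some red cell genes were lowest in library 3 labelled mutant and highest in libraries 1 and 2, among them the most abundant of their list. Hba-a1, an alpha globin gene, had 5468, 4607 and 6667 FPKM in controls against 11515, 9783 and 2584 FPKM in mutant-labelled libraries. Hbb-bs, a beta globin gene, had 71.3 FPKM in library 3 labelled mutant against 264 and 284 FPKM in libraries 1 and 2. Alas2, the first enzyme of haem synthesis in red cells (picked once its values were known), had 74.1, 63.5 and 99.1 FPKM in controls against 155, 171 and 39.2 FPKM in mutant-labelled libraries. Of the granule genes, Camp and S100a9 had this order of libraries and the other 8 did not. Counted from the lowest, library 3 labelled mutant ranked 4 for Ngp and S100a8 and 3 for Ltf, and for Lcn2 it was the lowest while library 2 lay below 2 controls. Of the red cell list, Tfrc and (named after their values were seen) Epor, Klf1 and Rhag did not have this order either, with Tfrc at 15.5 FPKM in library 3 against at most 10.3 FPKM in a control.

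The summed level of the red cell list was 4859 to 6923 FPKM in controls against 2717 to 11967 FPKM in mutant-labelled libraries. Tfrc, the transferrin receptor gene, was the 1 of its 7 tested genes to rise, and all 7 had a higher mean. Library 3 labelled mutant also had the lowest relative depth, 0.703. The part of blood or marrow content in the levels of Ngp, Camp, S100a8 and S100a9 was not tested.

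**Figure D3:**
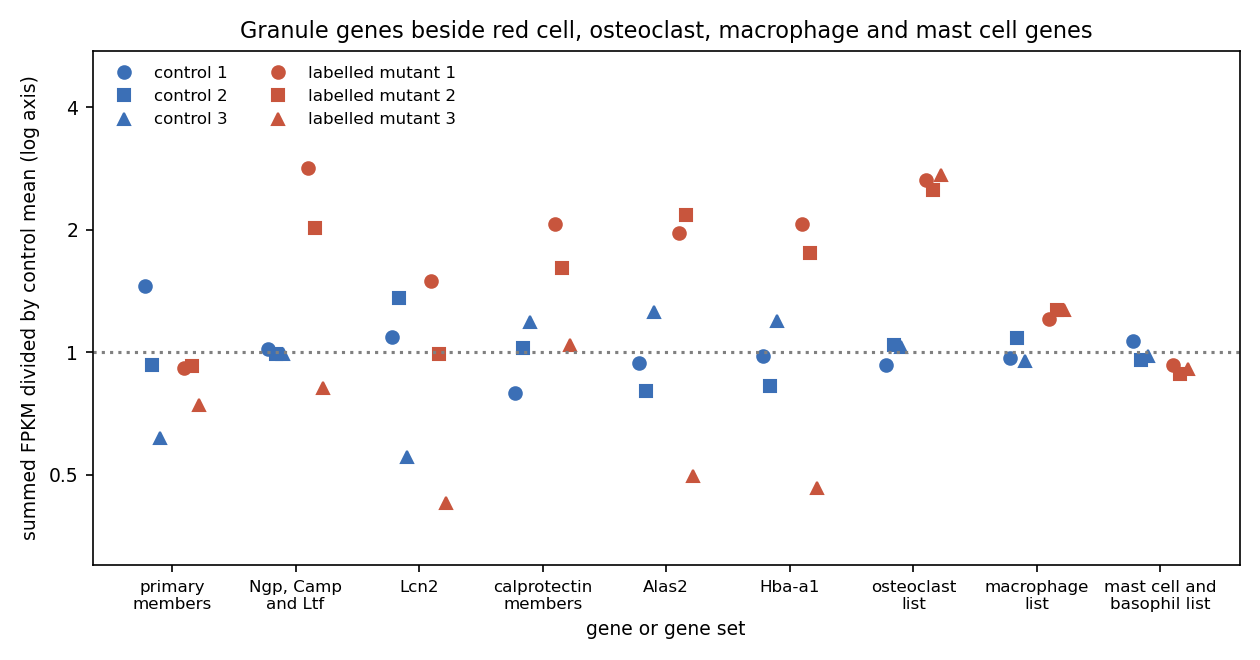
Summed FPKM of gene sets in each library divided by the mean of the 3 controls, on a log axis, in the same colours and symbols. Libraries 1 and 2 labelled mutant are above all controls for Ngp, Camp and Ltf, calprotectin, Alas2 and Hba-a1 while library 3 is not, whereas all 3 are above for the osteoclast and macrophage lists.

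Of the listed proteases of mast cells and basophils, the most abundant far exceeded those of the primary granule set, Elane, Prtn3 and Ctsg. Others of the list were low, with Tpsab1 at 3.98 to 6.8 FPKM and Prss34 and Mcpt8 at or below 0.906 FPKM (named after their values were seen). Tpsb2, a tryptase gene, had 128 ± 3.69 FPKM in controls against 114 ± 5.48 FPKM in mutant-labelled libraries (SD, n = 3 each), and Cma1, a chymase gene, had 104 ± 8.58 and 98.1 ± 2.61 FPKM. The summed level of the list ran from 379 to 421 FPKM in controls against from 350 to 368 FPKM in mutant-labelled libraries, and 0 of its 7 tested genes passed in limma (1 at an unadjusted p under 0.05). Mast cells can also express Ctsg, whose level, on the same FPKM scale, did not exceed 0.922. Genes of eosinophils, the sister granulocytes, were below 1 FPKM in every library for all 9 listed. Siglecf and Ccr3 were the highest by mean over the 6 libraries. Ear2 (named after its values were seen) reached 0.532 FPKM in library 2 labelled mutant, above Siglecf in any library.

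Of B, T and NK cells, few markers were present. The B cell list had 6 of 10 genes below 1 FPKM in every library, and its most abundant were Ebf1, which mesenchyme also expresses, and Cd79b. In the T and NK cell list 6 of 7 genes were below 1 FPKM in every library, and Thy1, also a gene of fibroblasts, was the exception. Neither list had a gene past the threshold in limma, and at an unadjusted p under 0.05 there were 0 of 3 tested B cell genes and 1 of 1 tested T and NK cell genes. In the platelet list 4 of 8 genes were below 1 FPKM in every library, and Pf4 was the most abundant, at 115 to 153 FPKM. Itgb3, which osteoclasts share, was the 1 gene of 4 tested to rise.

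Of the 4 secondary granule genes, 3 lie near the targeted gene itself. Pth1r spans positions 110722085 to 110747145 of chromosome 9 in GRCm38. Ltf, at 111019271 to 111042767, is 0.272 Mb from it, Ngp, at 110419747 to 110423012, is 0.299 Mb away, and Camp, at 109847379 to 109849617, is 0.872 Mb away. Lcn2 is on chromosome 2 at 32384633 to 32388252. Of 25 other tested genes that start within 1 Mb of the start of Pth1r, 1 passed in limma, Tmie (log2 difference 1.17 ± 0.17 SE, adjusted p = 0.0405), and Ngp had the next highest difference. The median over the 25 was -0.000426, with 12 higher and 13 lower.

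**Figure D4:**
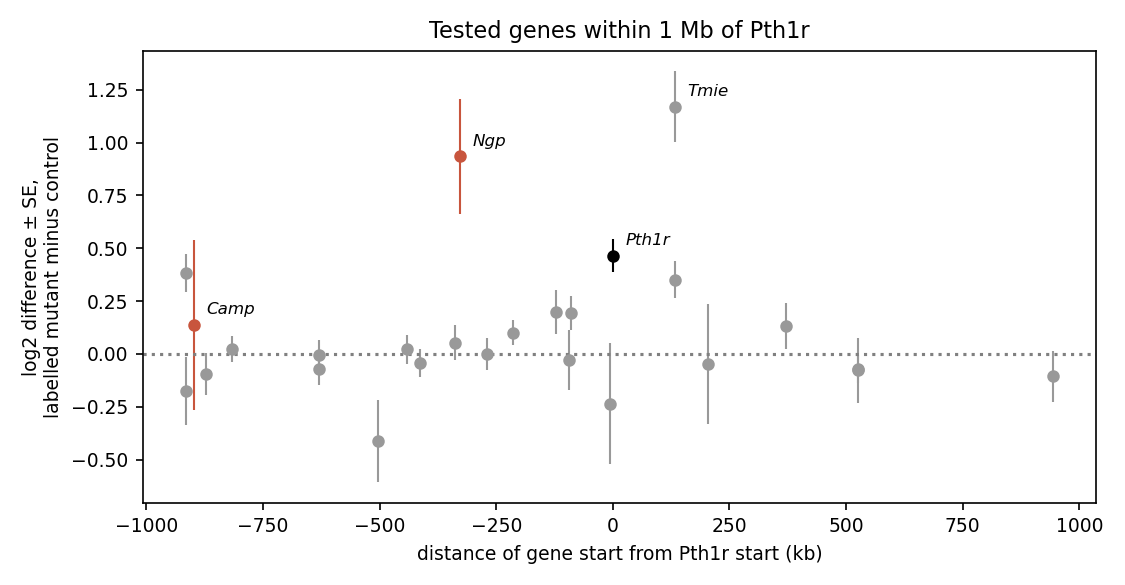
Log2 difference ± SE of the tested genes whose start lies within 1 Mb of the start of Pth1r, plotted against the distance in kb, with granule genes in red and Pth1r in black. Ngp and Tmie stand above the others, and most genes lie near 0.

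Genes outside the set were also ranked by how alike their levels were over the 6 libraries. With the mean log2 value of the primary granule genes, the highest Pearson correlations were those of Nek7 (0.986), Prpf18 (0.975), Cilp (0.974), Slc44a2 (0.968) and Imp3 (0.964). With that of the secondary granule genes they were those of Utp15 (0.998), Pnp (0.993), Maff (0.981), Hecw2 (0.974) and Rdh13 (0.971). Of 13175 genes, 57 and 42 lay above 0.9, which is 0.433% and 0.319%. The named genes are the highest of many correlations, each over only 6 libraries. How many unrelated genes would reach 0.9 was not tested. The correlations are given as a description only.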

How the data were processed

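Each of 6 libraries has a table of FPKM values for 24346 gene names, as deposited by the authors and used unchanged. The submitters' processing notes name Cufflinks 2.2.1, TopHat2 2.0.13, SAMtools 0.1.19 and Bowtie2 2.2.3, and the mm10 build. Options, gene models, strand setting and total reads are not given in the sources used here. Libraries were grouped by title, 3 against 3.

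A name entered the test at a mean of 1 FPKM or more, on log2(FPKM + 1) in limma 3.58.1 (R 4.3.3, eBayes with trend, group as the 1 term, two-sided, Benjamini-Hochberg adjustment, threshold 0.05), after a check on simulated data. Relative depth was read from names under 0.05 FPKM, at the peak of the ratio of values between libraries. Steps were accepted within 0.02 of whole numbers. Of 170 entries in 15 other gene lists, 166 matched. The rule for named genes took the 10 members, Pth1r, called and the 2 most abundant genes of each list, and the 5 most correlated genes per granule class. Not all of these are named in the text, which leaves out the 7 called osteoclast genes and the most abundant macrophage genes among others. Further genes, marked so in the text, were named after their values were seen. The members and lists were chosen with earlier results of these data known. Settings tried were another pseudocount (0.1), no filter, a filter at 5 FPKM, median-of-ratios and quantile scaling, eBayes without trend or robust, weights per array, a replicate block and each library left out. Coordinates are of GENCODE M21 (GRCm38).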

Additional observations from a re-analysis of the deposited data

How the results depend on the processing

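Among all genes, 80 passed the threshold, and 50 did with no filter on low values, 183 with array weights, 25 with the replicate number as a block and between 16 and 44 when 1 library was left out. Among the granule genes the count was 0 as reported and in 9 other settings, the block included, and between 0 and 1 when 1 library was left out, with Ngp called without library 3 labelled mutant. Pth1r had a log2 difference of 0.40 with array weights and passed there (adjusted p = 0.0458 in limma). The difference of Lcn2 turned to 0.50 with array weights and ran from -0.48 to 0.35 with 1 library left out, and that of Camp ran from -0.27 to 0.62. Under quantile scaling the sign for Prtn3 turned at an exact permutation p of 1. The causes were not tested. The 5 granule genes under 1 FPKM were tested with no filter, where 0 passed, also with 1 library left out, a combination chosen after seeing the data. The replicate numbers did not pair the libraries, with correlations of same-numbered deviations of 0.0163, -0.0714 and 0.0152. The counts of steps limit what could be seen for the primary granule genes and Camp.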
